A study of Mus musculus with 17 samples.

Results

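Transcripts of 9 rod and cone photoreceptor genes were followed through pools of retinal pigment epithelium (RPE) cells, as a possible reading of neural-retina RNA in those pools. The genes were Sag, Gnat1, Pde6b, Pdc, Gngt1, Rcvrn, Prph2, Nrl and Opn1sw, picked by name, and all 9 were among the 22253 gene symbols of the count table. They were read in 17 RNA-seq libraries of hand-picked RPE cells from Serpine3GFP/+ mice at 2 months, made from polyA RNA. Every group, controls included, carried 1 Serpine3 allele with the GFP reporter and 1 intact allele, so that GFP marks cells in which the Serpine3 promoter is active. The groups were GFP+ (peripheral cells with GFP, 6 libraries), ctrl periphery (peripheral cells without visible GFP, 5 libraries) and ctrl center (central cells without visible GFP, 6 libraries). By their labels the libraries came from 7 mice: 5 (mice 1, 2, 4, 5 and 7) are in all 3 groups, mouse 3 is in GFP+ alone and mouse 6 in ctrl center alone. Mouse 1 carries a pair of animal numbers and was taken as pooled animals. The neural retina had been lifted off with forceps before the cells were loosened and picked by eye, so that each library is a small pool of chosen cells and not a sample of the tissue.

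In the living eye the RPE lies against the outer segments of rods and cones and takes up their shed tips each day, and the lifting of the retina can leave pieces of outer segment on RPE cells. Of the 9 genes, 7 serve phototransduction, in which light on an opsin activates transducin, transducin releases the phosphodiesterase from its inhibitor, and cGMP channels close. Opn1sw is the short-wavelength opsin of cones. Gnat1 and Gngt1 are the alpha and gamma subunits of rod transducin, Pdc (phosducin) binds the transducin beta and gamma subunits, and Pde6b is the beta subunit of the rod phosphodiesterase. Sag (rod arrestin) shuts off the activated opsin, and Rcvrn (recoverin) is a calcium sensor that holds back the opsin kinase. Of the others, Prph2 (peripherin 2) shapes the rim of the outer segment discs, and Nrl is the transcription factor that sets rod fate.

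The identity of the pools was plain from RPE transcripts. Of 15 RPE markers, 14 had at least 10 counts in every library, and Rpe65, the isomerase of the visual cycle, ranged from 39568 to 184935 counts. Ttr, which carries retinol, averaged 31050 CPM (counts per library scaled to a common total, with TMM factors) and Rgr, an opsin of the RPE, averaged 22674 CPM. The remaining marker, Best1, a chloride channel by which RPE is usually defined, had at most 2 counts in any library, so that a count of 0 in this table does not by itself show that a transcript was missing from the cells. Total counts per library ran from 9896118 to 22467079, and the limit that a count of 0 allows, set at 3 counts, lay between 0.116 and 0.554 CPM. Such limits and the intervals below cover counting error only, because PCR copies without molecular identifiers are not independent molecules. The mitochondrial share of the counts was 0.710% to 17.2% in GFP+, 12.5% to 30.4% in ctrl periphery and 13.7% to 47.3% in ctrl center.

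One library stood apart for the rod genes. The GFP+ library of mouse 3 held 1968 counts of the 9 genes, against 10 to 145 in the other GFP+ libraries, and it alone set the GFP+ mean of several genes. Results that rest on it are therefore given with and without it where both were calculated.

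Promoter windows are shown for 4 of the genes. Sag, Pdc and Nrl are the genes that peaked together in that library along with Gnat1, and Gngt1 is a rod gene that did not. CRX, the homeodomain factor of photoreceptors, is known to bind the core TAATCC, and it drives rod genes together with NRL. The sequences are those of RefSeq (GRCm38.p6), on the strand of the gene, and cover the 120 bases before the start that RefSeq gives. For Gngt1 and Nrl that start lies inside the longer gene span of GENCODE given further on, since the annotations differ. Capitals mark TAATCC or its reverse complement GGATTA. The windows of Sag (chr1:87803560-87803679, plus strand), Gngt1 (chr6:3993888-3994007, plus strand), Pdc (chr1:150319297-150319416, plus strand) and Nrl (chr14:55524253-55524372, minus strand) read as follows.
Sag: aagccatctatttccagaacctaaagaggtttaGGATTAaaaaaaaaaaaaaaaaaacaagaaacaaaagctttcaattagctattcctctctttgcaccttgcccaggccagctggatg
Gngt1: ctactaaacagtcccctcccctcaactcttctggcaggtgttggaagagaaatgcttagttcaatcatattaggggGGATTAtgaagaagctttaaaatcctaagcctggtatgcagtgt
Pdc: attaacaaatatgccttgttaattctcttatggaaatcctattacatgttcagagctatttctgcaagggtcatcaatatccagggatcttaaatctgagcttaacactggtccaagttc
Nrl: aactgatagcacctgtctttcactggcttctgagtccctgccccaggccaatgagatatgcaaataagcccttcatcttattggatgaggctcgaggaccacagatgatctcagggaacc
The match lay 87 bases before the start of Sag and 44 before that of Gngt1. In the RefSeq table of promoters, each reaching from 250 bases before to 50 after the start, 7 of the 9 genes had an entry; those of Gnat1 and Rcvrn were not used here. TAATCC, on either strand, stood in 2 of the 7, Sag and Gngt1, and in 7.06% of all 32851 promoters. TGCTGA, the core that NRL is known to bind, stood on either strand in Sag, Pde6b and Opn1sw, 3 of the 7, and in 19.5% of all promoters. Of Sag and Pdc, which were high in the same library, Sag held this exact core and Pdc did not. Whether these genes share a regulator was not tested. A match is a string of letters and not a measured binding site.

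Levels of the 9 genes were low in every library. Their summed level in GFP+ ranged from 0.477 to 87.5 CPM with a median of 2.63. In ctrl periphery it was 2.90 CPM in mouse 1, 10.3 in mouse 2, 7.65 in mouse 4, 15.3 in mouse 5 and 2.37 in mouse 7. In ctrl center it ranged from 1.20 to 17.9 CPM with a median of 4.75. The 3 groups overlapped throughout, and the library of mouse 3 lay above all others. The group means were 17.5 ± 34.4 (SD, n = 6), 7.71 ± 5.40 (SD, n = 5) and 6.31 ± 6.45 CPM (SD, n = 6) for GFP+, ctrl periphery and ctrl center. Without the library of mouse 3 the GFP+ mean was 3.56 ± 3.85 CPM (SD, n = 5), which made it the lowest of the 3 group means in place of the highest. Without the library of mouse 5 the ctrl periphery mean was 5.81 CPM, and without that of mouse 2 the ctrl center mean was 4.00 CPM. In many libraries the sum was mostly a single gene, so that it is not an even reading of all 9. Gnat1 made up from 4.62% of the summed counts (ctrl center, mouse 2) to 100% (ctrl center, mouse 7). Pdc made up from 0% to 80.9% (ctrl periphery, mouse 2), with 65.2% in the library of mouse 3. Whether these counts came from photoreceptor fragments was not tested. If they did, fewer fragments and less RNA per fragment cannot be told apart in bulk pools.

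As a share of all counts, the 9 genes made up 0.0102% in the GFP+ library of mouse 3 (95% Wilson interval 0.00973% to 0.0106%). At the other end, the GFP+ library of mouse 7 held 10 such counts, a share of 5.29e-05% (95% Wilson interval 2.87e-05% to 9.74e-05%). Rpe65 had 45.6 counts for each count of the 9 genes in the library of mouse 3 and 10022 in that of mouse 7. Both extremes came from the same group, cells picked for their GFP.

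**Figure D1:**
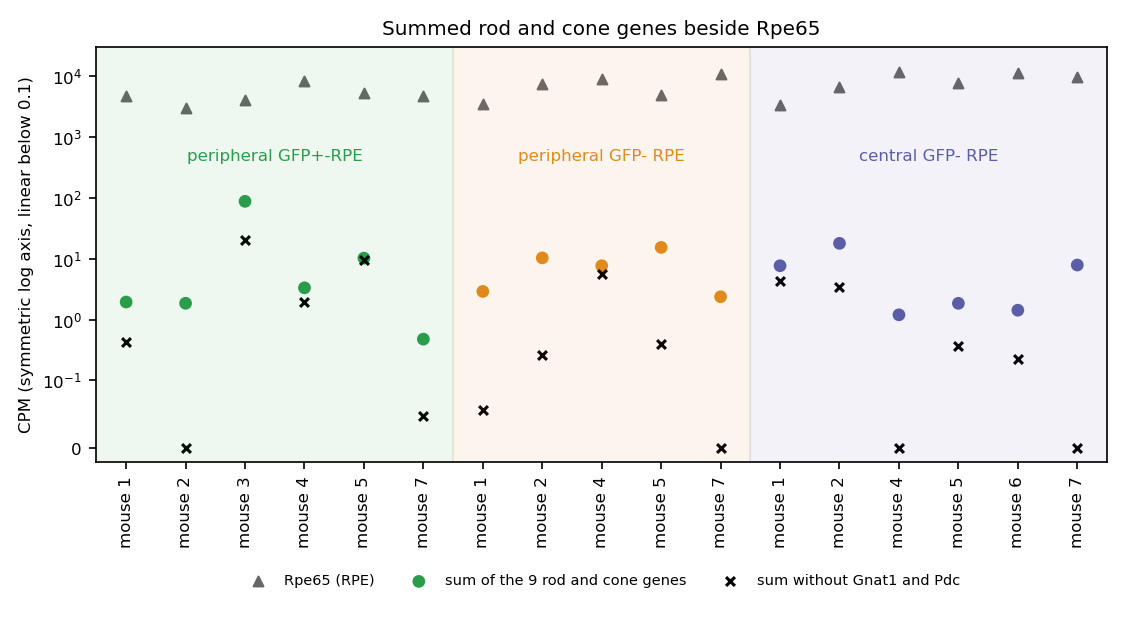
Each column is 1 library, named by its mouse and shaded by group; the vertical axis gives CPM on a symmetric log scale that is linear below 0.1. Circles are the summed level of the 9 rod and cone genes, crosses the same sum without Gnat1 and Pdc, and triangles Rpe65, the RPE gene. The circles lie between 0.477 and 87.5 CPM, far under the triangles in every library, and the GFP+ library of mouse 3 is the highest.

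Gnat1 was the most widely seen of the 9 genes. It had counts in all 17 libraries and at least 10 in 14 of them. In GFP+ it ranged from 8 to 236 counts with a median of 14. In ctrl periphery it had 19 counts in mouse 1, 33 in mouse 2, 42 in mouse 4, 60 in mouse 5 and 21 in mouse 7. In ctrl center it ranged from 8 to 71 counts with a median of 15. A low level of this rod transducin subunit was thus present in every pool, with mouse 3 highest in GFP+ and mouse 7 highest in ctrl center. Mean levels were 2.47 ± 3.96 CPM (SD, n = 6) in GFP+, 2.33 ± 1.42 (SD, n = 5) in ctrl periphery and 2.29 ± 2.74 (SD, n = 6) in ctrl center. Without the library of mouse 3, the GFP+ mean was 0.868 ± 0.524 CPM (SD, n = 5). Without that of mouse 5, the ctrl periphery mean was 1.72 ± 0.467 CPM (SD, n = 4). Without that of mouse 7, the ctrl center mean was 1.17 ± 0.239 CPM (SD, n = 5). The gene lies on the minus strand at chr9:107674474-107679712 (GRCm38, GENCODE M21), with 9 exons in its coding transcript.

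Gngt1, the gamma partner of Gnat1, was barely seen. The 6 GFP+ libraries held 3 counts of it in all, none with more than 1. In ctrl periphery it had 1, 5, 1, 4 and 0 counts in mice 1, 2, 4, 5 and 7. The ctrl center libraries ranged from 0 to 13 counts with a median of 0.5, and mouse 1 was the highest. The library with most Gnat1, that of mouse 3, had 1 count of Gngt1. The gene lies at chr6:3993792-3997436 on the plus strand.

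Pdc gave the highest count of any of the 9 genes. It reached 1284 counts in the GFP+ library of mouse 3, 29 in that of mouse 2 and 0 in the other 4 GFP+ libraries. In ctrl periphery it had 32 counts in mouse 1, 161 in mouse 2, 0 in mouse 4, 128 in mouse 5 and 3 in mouse 7. In ctrl center it had 25 counts in mouse 1, 248 in mouse 2, 1 in mouse 4 and 0 in mice 5, 6 and 7. Phosducin thus had either at most 3 counts or 25 and more in a library, with both kinds in each group. Its mean level was 9.74 ± 23.2 CPM (SD, n = 6) in GFP+ and 0.275 ± 0.616 CPM (SD, n = 5) without the library of mouse 3. In ctrl periphery it was 4.12 ± 4.78 CPM (SD, n = 5) and in ctrl center 2.64 ± 5.45 CPM (SD, n = 6). Leaving out the highest library took these to 2.61 ± 3.90 (SD, n = 4, without mouse 5) and 0.441 ± 0.931 CPM (SD, n = 5, without mouse 2). The gene lies at chr1:150319417-150333906 on the plus strand.

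The detection of Pdc also differed between runs of animal numbers. The animal numbers fall into 2 runs, mice 1 to 3 with 7 libraries and mice 4 to 7 with 10, and the labels do not say whether these were processed apart. At least 10 counts of Pdc were found in 6 of the 7 libraries of the first run, with a median of 32 counts, and in 1 of the 10 of the second, with a median of 0. These libraries come from 3 and 4 mice and are not independent. Within a mouse Pdc varied. The counts in GFP+, ctrl periphery and ctrl center were 0, 32 and 25 in mouse 1, 29, 161 and 248 in mouse 2, and 0, 128 and 0 in mouse 5. Gnat1 had medians of 19 and 17 counts in the same runs. Sag, Gngt1, Prph2 and Nrl reached 10 counts only in the first run, in 2, 1, 1 and 1 libraries. Pde6b reached them in 1 library of the first run and 2 of the second, and Opn1sw in 2 of each.

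Sag and Nrl were found in nearly a single library each. Sag had 186 counts in the GFP+ library of mouse 3, 12 in the ctrl center library of mouse 2 and 0 in the other 15 libraries. Nrl had 261 counts in the GFP+ library of mouse 3 and 0 in the other 16. Rod arrestin and the rod-fate factor thus came from the same pool, which held 93.9% of all Sag counts and 100% of all Nrl counts. It also held 67.2% of the Pdc counts and 37.4% of the Gnat1 counts, while the other 5 genes had at most 1 count there. Sag lies at chr1:87803680-87845158 on the plus strand and Nrl at chr14:55518978-55524981 on the minus strand.

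Pde6b was found in other pools. It had 116 counts in the ctrl periphery library of mouse 4, 38 in the GFP+ library of mouse 5, 11 in that of mouse 1 and 1 in the ctrl center library of mouse 2. The other 13 libraries, among them that of mouse 3, had 0. The gene lies at chr5:108388391-108432397 on the plus strand. Opn1sw, the cone opsin, had 98 counts in the GFP+ library of mouse 5 and 25 in that of mouse 4, and 37 and 32 in the ctrl center libraries of mice 1 and 2. It had 0 in the other 13, among them all 5 of ctrl periphery. Cone opsin and rod phosphodiesterase were thus both highest outside the pool in which Sag, Gnat1, Pdc and Nrl peaked. The Opn1sw gene (chr6:29376671-29388468, minus strand) has exons that overlap those of Calu on the plus strand. Since the use of strand in the counting is not given in the sources used here, reads of this pair of genes may not be told apart; none of the other 8 genes has such an overlap.

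Prph2 and Rcvrn were at or near 0. Prph2 had 16 counts in the ctrl center library of mouse 2, 3 in that of mouse 6 and 1 in that of mouse 1, and 1 each in the GFP+ library of mouse 7 and the ctrl periphery library of mouse 5. The other 12 libraries had 0. Rcvrn had 0 counts in all 17 libraries, like 2823 genes of the table (12.7%), and each library allows up to its own limit of 0.116 to 0.554 CPM. Prph2 lies at chr17:46910459-46924933 and Rcvrn at chr11:67695326-67703333, both on the plus strand.

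**Figure D2:**
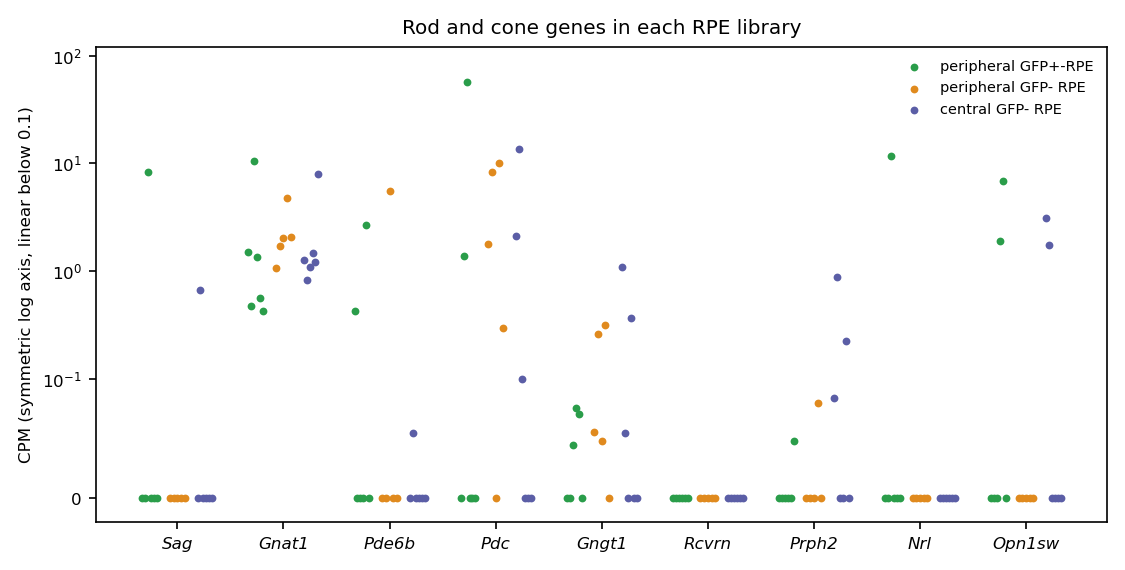
Each point is 1 library; the horizontal axis gives the 9 genes and the vertical axis CPM on a symmetric log scale that is linear below 0.1, with colours for the 3 groups. Gnat1 lies above 0 in all 17 libraries, Rcvrn at 0 in all, and Sag, Nrl, Pde6b and Opn1sw are at 0 in most libraries and at several CPM in single ones.

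Set per kilobase of coding transcript and averaged over the 17 libraries, Pdc stood highest at 4.48 CPM per kb, followed by Gnat1 at 1.02. Opn1sw (0.333), Sag (0.305), Nrl (0.272), Pde6b (0.184) and Gngt1 (0.119) came next, then Prph2 (0.0290) and Rcvrn (0). For scale, Rpe65 reached 3647 CPM per kb. No neighbours in this order were apart beyond their spread, since for each of the 8 genes with counts the SD over the libraries exceeded the mean and the ranges overlapped. Without the library of mouse 3 Pdc stood at 1.90 CPM per kb, Gnat1 at 0.797, Sag at 0.0240 and Nrl at 0, and the other genes moved little.

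Detection over the libraries is set beside that of the whole table. Of the 9 genes, 6 (66.7%) reached 10 counts in 1 to 4 libraries, against 15.1% of all 22253 genes. Gnat1 and Pdc (22.2%) reached them in 5 to 16 libraries, against 34.4% of all genes. None reached them in all 17 libraries, as 13.6% of all genes did, and 1 (11.1%) reached them in none, as 36.8% did. The share depends on level, and these genes are low. Single-library genes of the kind of Nrl, with at least 100 counts in 1 library and at most 3 in each other, numbered 239 of 22253 (1.07%), from 1 to 65 per library. The library of mouse 3 held 12 of them, and Nrl was the only such gene among the 9.

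**Figure D3:**
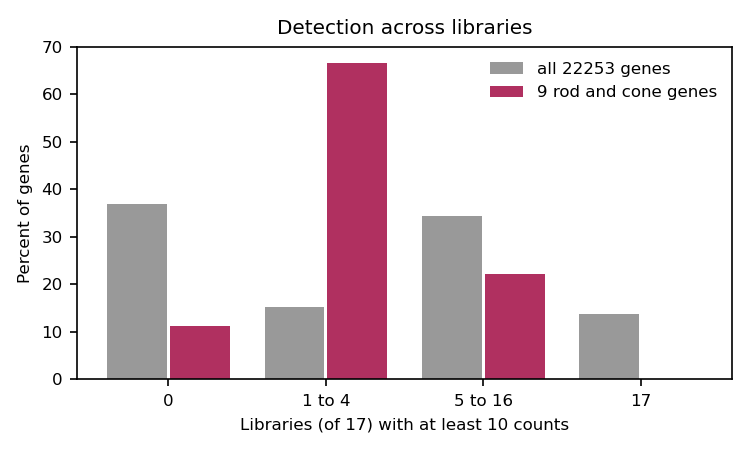
Bars give the percent of genes that had at least 10 counts in 0, in 1 to 4, in 5 to 16 or in all 17 libraries, grey for all 22253 genes and red for the 9 rod and cone genes. The red bar stands at 66.7% for 1 to 4 libraries, where the grey bar stands at 15.1%.

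The number of the 9 genes with at least 10 counts also varied by pool. It was 2, 2, 4, 2, 2 and 0 in the GFP+ libraries of mice 1, 2, 3, 4, 5 and 7. It was 2, 2, 2, 2 and 1 in the ctrl periphery libraries of mice 1, 2, 4, 5 and 7. In ctrl center it was 4, 5, 1, 0, 1 and 1 in mice 1, 2, 4, 5, 6 and 7. The ctrl center library of mouse 2 thus held the most of these genes, although it was not the one with most counts. On the scale of log2(CPM + 1) over the 17 libraries, Sag and Nrl followed the mean of the other genes with r = 0.81 and 0.72, Pdc with 0.59 and Gnat1 with 0.42. For Prph2 (0.15), Gngt1 (0.11), Opn1sw (-0.04) and Pde6b (-0.15) the r was lower. Nrl had counts in the library of mouse 3 alone, and Sag had 12 counts in 1 other library. Their r thus rested on the library of mouse 3, and no r was calculated without it. The points of all genes share that library, so these values are a description only.

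Outside the lists, the 5 genes whose log2(CPM + 1) was most like the mean of the 9 over the 17 libraries, of 10636 genes compared, were Prkch (r = 0.81), Tube1 (0.79), Egfl7 (0.77), Bahcc1 (0.77) and Olfr160 (0.74). Egfl7 is known as an endothelial gene and Prkch as a protein kinase C. In the library of mouse 3 these genes had 497, 157, 164, 217 and 191 counts, against at most 122, 80, 100, 33 and 130 in any other library. Without it the same correlations were 0.52, 0.65, 0.58, 0.34 and 0.52. The likeness thus rested in part on that library.

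The groups were compared pairwise across all genes with edgeR's quasi-likelihood test. Calls required an absolute log2 fold change over 1 and an adjusted p (Benjamini-Hochberg) under 0.01. They share libraries with each other, so that their values are set side by side and not counted as separate evidence. The default filter on low counts kept Gnat1 in all 3 comparisons and Pdc in those with ctrl periphery, and the other 7 genes passed in none. None of the 9 genes was called in GFP+ against ctrl center, where 0.0431% of 9286 genes were. None was called in GFP+ against ctrl periphery (0.0396% of 10102 genes), and none in ctrl periphery against ctrl center (0% of 9535 genes). In the last comparison edgeR called 0 genes of the whole table, 257 had an unadjusted p under 0.05, and DESeq2 called 28. At an unadjusted p under 0.05, where 5.8%, 5.58% and 2.7% of the genes tested stood in the 3 comparisons, there was none of the 1 or 2 of the 9 that passed the filter. Without the filter, 3 of the 9 had such a p in each comparison, where 20.1%, 13.2% and 11.1% of all genes did, and none was called. They were Nrl, Prph2 and Pde6b in the first, Sag, Nrl and Opn1sw in the second, and Sag, Pde6b and Opn1sw in the third. DESeq2 gave an adjusted p to 4, 4 and 6 of the 9 in these comparisons and called none of them, where it called 1.71%, 0.442% and 0.171% of all genes with such a p. It gave no p to Gnat1 in the comparisons with GFP+, or to Nrl wherever Nrl had counts. A list of which 1 or 2 genes can be tested says little about the rest.

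For Gnat1 the log2 fold change was 0.01 ± 1.12 (SE) in GFP+ against ctrl center, 0.08 ± 1.22 against ctrl periphery and -0.03 ± 1.09 in ctrl periphery against ctrl center, each with an adjusted p of 1.00 from edgeR. The SE is over 1 log2 unit in all 3, so that a change of 1 log2 unit in either direction lay within the error. Without the library of mouse 3 the first 2 values were -1.43 and -1.40, neither called (edgeR, adjusted p of 0.999 and 0.996). Under the replicate block by mouse they were -1.11 and -1.42, again not called (edgeR, adjusted p of 0.950 and 0.948), and ctrl periphery against ctrl center was 0.25. For Pdc the log2 fold change was 1.21 ± 2.13 in GFP+ against ctrl periphery and 0.63 ± 1.87 in ctrl periphery against ctrl center (edgeR, adjusted p of 1.00 in both). The replicate block by mouse takes the library of mouse 3 out of the contrast, and the first value was then -5.93 ± 2.78 (edgeR, unadjusted p = 0.0277, adjusted p = 0.671). With the 2 runs of mice as a term in the fit, which keeps that library, it was -4.90 (edgeR, not called), and Gnat1 was -0.55 against ctrl center and -0.51 against ctrl periphery. The direction of both genes in GFP+ was thus not settled by these libraries.

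The 40 other rod and shared photoreceptor genes stood at a far higher summed level. Of these 40, 9 had at least 10 counts in every library and 13 in none. Their summed level was 1477 to 2150 CPM in GFP+, 1561 to 2257 in ctrl periphery and 1589 to 2100 in ctrl center, and the library of mouse 3 had the lowest of all 17. Slc24a1, a sodium, calcium and potassium exchanger, led the list with 701 CPM on average. It was followed by Gnb1, a G protein beta subunit that many cell types use, with 239. Rod genes of the list, named here after their values were seen, ranged widely. Cngb1, a subunit of the rod channel, had at least 10 counts in 15 of the 17 libraries and up to 692, whereas Cnga1, the other subunit, had 4 counts in 1 library and 0 in the other 16. Rbp3, the retinoid-binding protein between RPE and retina, and Crx had at most 1 and 3 counts in any library. Pde6g, the inhibitory subunit of the rod phosphodiesterase, had 0 counts in the library of mouse 3 and reached 167 in the GFP+ library of mouse 1. Rgs9, the activator of transducin's own GTPase, had 557 counts or more in each library.

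Pde6a, the alpha partner of Pde6b, differed from it in detection. It had at least 28 counts in every library and averaged 4.74 CPM per kb, against 0.184 for Pde6b. Its level was 5.96 ± 3.47 CPM (SD, n = 6) in GFP+, 12.6 ± 2.46 (SD, n = 5) in ctrl periphery and 45.2 ± 44.5 (SD, n = 6) in ctrl center. The log2 fold change in GFP+ against ctrl center was -3.10 ± 0.87, not called by edgeR (adjusted p = 0.150) and called by DESeq2 (-3.15 ± 0.77, adjusted p = 0.00423). Its lowest count, 28, came from the library with the smallest mitochondrial share (0.710%) and its highest, 685, from that with the largest (47.3%). The part of that share in the difference was not tested.

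Of the 40, 14, 16 and 15 passed the filter in GFP+ against ctrl center, GFP+ against ctrl periphery and ctrl periphery against ctrl center, and 0 were called by edgeR in each. At an unadjusted p under 0.05, Rgs9 was higher and Pde6a lower in the first, Gucy2e, a photoreceptor guanylate cyclase, was lower in the second, and Pde6a was lower in the third. These are 2 of 14, 1 of 16 and 1 of 15, where 5.8%, 5.58% and 2.7% of all genes tested stood. Their median log2 fold changes were -0.36, -0.17 and -0.28, against 0.00, 0.01 and 0.01 for all genes tested. DESeq2 called Grk1, the opsin kinase, and Pde6a as lower in GFP+ against ctrl center (1.71% of all genes were called there). Grk1 (DESeq2, adjusted p = 0.00452) had 0 to 2 counts in GFP+ and 1 to 32 in ctrl center and did not pass edgeR's filter.

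Of 13 further cone genes, 3, 5 and 5 passed the filter and 0 were called by either tool, with median log2 fold changes of -0.59, -0.27 and 0.25. Their sums were 42.3 to 85.6 CPM in GFP+, 42.5 to 168 in ctrl periphery and 5.91 to 123 in ctrl center. Thrb, the thyroid hormone receptor beta of cones and other cells, averaged 24.6 CPM, and Gnat2, the cone transducin alpha subunit, averaged 24.2. Cone arrestin (Arr3) had 1 count in 1 library and 0 in the other 16, and Opn1mw, the other mouse cone opsin, had 34 counts in the GFP+ library of mouse 2 and 0 elsewhere. Neither cone opsin came with cone arrestin.

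**Figure D4:**
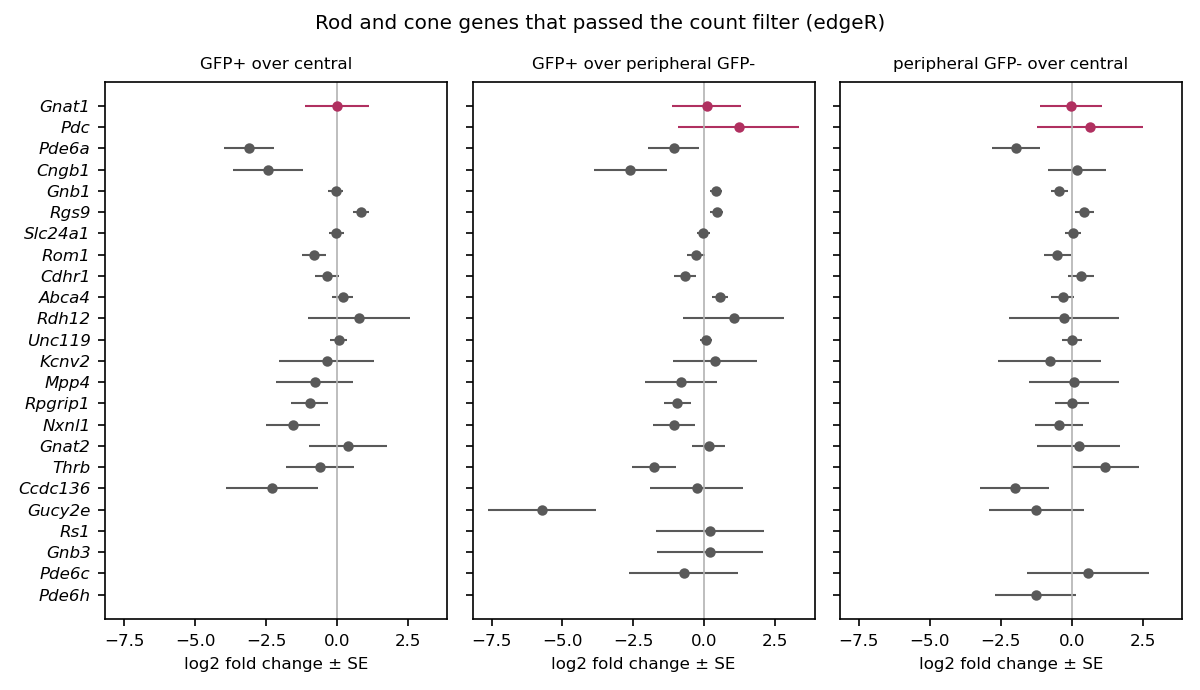
Points are log2 fold changes of edgeR for the rod and cone genes that passed the filter on low counts, in the 3 comparisons. Bars are SEs calculated from its fit. Gnat1 and Pdc are in red and the other genes in grey. The bars of Gnat1 and Pdc cross 0 in each panel in which they appear, and Pde6a lies at -3.10 in GFP+ against ctrl center.

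Markers of other cells were read in the same pools, with the library of mouse 3 in view. The bipolar cell markers summed to 9.40 to 44.0 CPM in GFP+, 13.6 to 22.5 in ctrl periphery and 7.38 to 31.7 in ctrl center, and mouse 3 was the highest of all 17. Their leading genes were Prkca (16.9 CPM on average) and Gpr179 (1.97), and Gpr179, a receptor of ON bipolar cells, had 341 counts in mouse 3 against at most 82 elsewhere. Red blood cell markers summed to 0 to 9.95 CPM in GFP+, 0 to 2.67 in ctrl periphery and 0 to 15.0 in ctrl center, with Hba-a2 (1.07 CPM) and Hbb-bs (0.478) leading. Hbb-bs, a beta globin, had 164 counts in mouse 3 and at most 12 elsewhere. Pecam1, an endothelial adhesion molecule, had 52 counts there and at most 2 elsewhere. Other markers of the same lists did not follow: Hba-a2 had 34 counts in mouse 3 and 162 in the ctrl center library of mouse 1, Alas2 and Hbb-bt had 0 there, and Plvap had 1 count there and up to 284 elsewhere. These 3 transcripts were picked after their values were seen, and their part in the result was not tested.

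The other lists did not set mouse 3 apart. Endothelium markers summed to 7.97 to 27.0, 1.27 to 26 and 0.333 to 16.3 CPM in GFP+, ctrl periphery and ctrl center, led by Plvap (6.67 CPM) and Flt1 (3.16). Mueller glia markers summed to 8984 to 14362, 5733 to 14076 and 6034 to 13378 CPM, nearly all from Clu (5771 CPM) and Apoe (4123), which RPE cells also make. Amacrine and horizontal cell markers summed to 72.5 to 168, 76.0 to 221 and 88.3 to 178 CPM, led by Slc6a9 (97.2 CPM) and Tfap2a (27.8). Ganglion cell markers summed to 0 to 17.6, 0.0481 to 8.64 and 0.111 to 2.97 CPM, led by Rbpms (2.76 CPM) and Pou4f1 (0.149). Choroid stroma and fibroblast markers stayed at or under 0.563, 1.14 and 2.03 CPM, led by Col1a1 (0.394 CPM) and Lum (0.143). Macrophage and microglia markers summed to 35.6 to 111, 96.7 to 146 and 68.4 to 116 CPM, nearly all from Csf1r (89.2 CPM), with Ptprc, which defines white blood cells, at 0.112. edgeR called no gene of these lists or of the RPE, bipolar cell and red blood cell lists in any of the 3 comparisons. In GFP+ against ctrl center DESeq2 called Tfap2a as lower (-2.96 ± 0.75, adjusted p = 0.00606), and edgeR did not call it (adjusted p = 0.141). Its lowest count, 63, and highest, 849, came from the libraries with the smallest (0.710%) and largest (47.3%) mitochondrial share, as for Pde6a. The part of that share was not tested. DESeq2 also called Dkk3 as higher there (adjusted p = 0.000591), a gene that did not pass edgeR's filter. Dkk3 had 718, 196, 338, 35, 2 and 0 counts in the GFP+ libraries of mice 1, 2, 3, 4, 5 and 7. It had 88, 0, 0, 5 and 160 in ctrl periphery (mice 1, 2, 4, 5 and 7) and 0 in all 6 ctrl center libraries. Its log2 fold change in GFP+ against ctrl periphery was 1.15 ± 1.83 (edgeR, not called).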

How the data were processed

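The libraries were made by the authors from small pools of RPE cells with a SMART-Seq kit and sequenced as short single-end reads. The authors deposited whole-number expected counts per gene symbol, without normalization; the submitters' processing notes name fastp, Salmon and GRCm38.p6, and the annotation and the handling of strand are not given in the sources used here. No column of per-sample values was set aside. Reads of overlapping or near-identical genes may be shared in ways that cannot be traced. Groups and mice came from the labels. The members and the other gene lists were chosen with earlier results of these data known.

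For CPM, TMM factors came from all 17 libraries together. Each pair of groups was fitted in edgeR (version 4.0.16; R version 4.3.3) and tested by quasi-likelihood, after TMM scaling and its default filter, on the libraries of those groups alone; DESeq2 (version 1.42.0), which the paper's methods name, was an alternative. The other alternatives were other scaling, no filter or 10 counts in 5 libraries, all groups in 1 fit, the mouse as a block, the run of animal numbers as covariate, other limits and each library left out in turn. The quasi-likelihood test returns no SE. The SE beside an edgeR fold change was calculated as the absolute fitted coefficient, in log2 units, over the square root of the test's F. A count of 0 was taken to allow 3 counts. Figures were drawn with Python (version 3.11.15) and matplotlib (version 3.10.9). The edgeR fit was tested on simulated counts of GFP+ against ctrl center, with the same spread setting for every gene. The simulation did not model genes that are high in a single library and near 0 elsewhere, so it says nothing on such genes. The expected counts were whole and needed no rounding.

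Libraries of one mouse come from the same animal, or for mouse 1 from the same pair of animal numbers, so the mouse pairs them. Over 15 pairs and 10660 genes, the correlation of their deviations from the group means was -0.0195 to 0.0922, with 0 pairs over 0.1. Gene positions are those of GRCm38 with GENCODE M21. Named were all members, the 2 genes of highest mean CPM of each other list, any gene called and the 5 genes outside the lists most like the members; other genes of the lists were named after their values were seen.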

Additional observations from a re-analysis of the deposited data

Results flagged for a closer look

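The highest library of a group was checked against the next one in 23 groups of values (8 members and their sum, by group, where the values were not all 0), and its distance passed Dixon's 95% limit in 17 of them. Chance flags about 1 in 20 groups, and groups that are mostly at 0 are flagged readily.

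In GFP+ the library of mouse 3 was far from the others for Sag (8.27 CPM, the next at 0), Nrl (11.6 CPM, the next at 0), Gnat1 (10.5 CPM, the next at 1.51), Pdc (57.1 CPM, the next at 1.38) and the sum of the 9 genes (87.5 CPM, the next at 10.2). The library of mouse 5 was far from the others for Pde6b (2.68 CPM) and Opn1sw (6.90 CPM), and that of mouse 7 for Prph2 (0.0477 CPM, which is 1 count).

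In ctrl periphery the library of mouse 4 stood out for Pde6b (5.58 CPM, the next at 0), and that of mouse 5 for Gnat1 (4.77 CPM) and for Prph2 (0.0794 CPM, which is 1 count).

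In ctrl center the library of mouse 2 stood out for Sag (0.660 CPM), Pdc (13.6 CPM), Prph2 (0.880 CPM) and Pde6b (0.0550 CPM, which is 1 count). The library of mouse 1 stood out for Gngt1 (1.09 CPM) and that of mouse 7 for Gnat1 (7.87 CPM, the next at 1.48).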

How the results depend on the processing

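The 9 genes gave 0 calls in each comparison under every alternative run, although most could not be tested in many of them. Called genes over the whole table moved with the setting. In GFP+ against ctrl center they numbered 4, against 206 with DESeq2, 2 with a filter of 10 counts in 5 libraries, 60 and 56 with the replicate block (mice with both groups, all libraries), 1 with the run covariate, 8 at an adjusted p under 0.05 and 1 to 3 with a library left out. In GFP+ against ctrl periphery they numbered 4, against 66 with DESeq2, 0 with all 3 groups in the fit, 0 with either block, 1 with the run covariate and 0 to 5 with a library left out. In ctrl periphery against ctrl center they numbered 0, against 28 with DESeq2. Of the other lists, DESeq2 called 4 genes in GFP+ against ctrl center where edgeR called 0.

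The log2 fold change of Gnat1, near 0, changed sign often. In GFP+ against ctrl center it was -0.0056 with DESeq2 (which gave no p), -0.030 with median-of-ratios size factors, -1.11 with either block and -0.55 with the run covariate, and ran from -1.43 (without mouse 3 in GFP+) to 0.96 (without mouse 7 in ctrl center) with a library left out. In GFP+ against ctrl periphery it was -1.42 with either block, -0.51 with the run covariate and -1.40 to 0.56 with a library left out. In ctrl periphery against ctrl center it was 0.033 without the filter, 0.25 with either block, 0.10 with the run covariate and -0.50 to 0.91 with a library left out. Pdc in GFP+ against ctrl periphery was -5.93 with the block over all libraries, -4.90 with the run covariate and 0.89 to 1.91 with a library left out; without mouse 2 or mouse 3 in GFP+, or with only mice of both groups, it did not pass the filter. In ctrl periphery against ctrl center it was 4.46 with the run covariate and -0.066 (without mouse 5 in ctrl periphery) to 0.95 with a library left out; without mouse 1 or 2 in ctrl center it did not pass the filter. The cause of these changes was not tested. No call of the 9 genes changed with the block.

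Summed levels kept within 1 SD under other denominators; with a library left out the mean ran from 3.56 to 21.0 CPM in GFP+, 5.81 to 9.05 in ctrl periphery and 4.00 (without mouse 2) to 7.33 in ctrl center. Levels under 0.116 to 0.554 CPM, depending on the library, could not be told from 0.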
